A study of Mus musculus with 69 samples.

Results

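Aldh3a1 and 6 genes of the aryl hydrocarbon receptor pathway (Cyp1a1, Cyp1b1, Ahr, Ahrr, Tiparp and Arnt) were followed through 3 kinds of cultured primary vascular cells under metabolic and humoral stress. The 7 genes were picked by symbol out of 56953 gene identifiers in the count tables. Aldh3a1 was chosen because an earlier look at these libraries had shown that its response to ALL stressors differed between WT VSMC and KO VSMC, and the other 6 were selected on what is known of the pathway. The response of Aldh3a1 to ALL stressors in VSMC and its difference between genotypes are therefore given as a description, without a test.

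RNA-Seq was done on 69 libraries of cells from male C57BL/6 mice. WT VSMC (16 libraries, sets 1 to 4) were smooth muscle cells grown out of the thoracic and abdominal aorta and used within 7 passages. KO VSMC (15 libraries, sets 5 to 8) came from animals whose floxed Egfr was recombined by Cre under the SM22 promoter, so that the EGF receptor was to be lost where that promoter is active, and EC (38 libraries, sets 9 to 18) were cardiac endothelial cells enriched with CD31 beads. Cells of 1 set shared animal and passage and were kept for 24 h as Control, with HG + FFA (20 mM glucose and free fatty acids), with AII + NA (30 nM angiotensin II and 300 nM of a catecholamine, epinephrine in the labels and norepinephrine in the study's methods) or with ALL, which combined them. The labels give 100 µM free fatty acids, and the methods 100 µM each of oleate and palmitate. Serum-free medium and albumin were common to all groups. WT VSMC had n = 4 in every condition and KO VSMC n = 4 except for ALL (n = 3, sets 6 to 8), while EC had n = 9 for Control and AII + NA and n = 10 for HG + FFA and ALL. EC sets 17 and 18 came from 1 animal, WT VSMC sets 1 and 2 shared their animals with EC sets 9 and 10, and the animals of KO VSMC sets 7 and 6 also gave EC sets 15 and 16. All VSMC libraries carry another batch label than all EC libraries, so that cell type and batch cannot be told apart.

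AHR is a transcription factor of the bHLH-PAS family that waits in the cytosol bound to the chaperone HSP90. On binding planar aromatic compounds or tryptophan metabolites it moves to the nucleus, pairs with ARNT and binds xenobiotic response elements, whose core reads GCGTG. Cyp1a1, Cyp1b1, Ahrr and Tiparp are classical targets: CYP1A1 and CYP1B1 are monooxygenases that oxidise aromatic compounds and fatty acids, and AHRR and TIPARP, a mono-ADP-ribosyltransferase, damp the receptor's activity. Aldh3a1 encodes an aldehyde dehydrogenase that clears aldehydes of lipid peroxidation. It is abundant in the corneal epithelium and is inducible through AHR in several other tissues.

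Of the 7 genes, 5 had an entry in the RefSeq promoter table (GRCm38.p6, 250 bases before to 50 bases after the gene start), namely Cyp1a1, Cyp1b1, Ahrr, Tiparp and Arnt. Aldh3a1 and Ahr did not match. GCGTG was searched on both strands and was found once in the windows of Cyp1a1, Cyp1b1, Tiparp and Arnt and 3 times in that of Ahrr. Over all 32544 distinct windows of that length, 32.6% held it. The longer TNGCGTG, held by 5.09% of windows, was found once in Ahrr and not in Cyp1a1, Cyp1b1, Tiparp or Arnt. The 3 targets shown here had a single GCGTG each and differed most in RNA level. The strand of the gene is printed 5′ to 3′, and capitals mark GCGTG or, where the match is on the other strand, CACGC.
Cyp1a1 (chr9:57697363-57697662, plus strand, match 54 bases before the start): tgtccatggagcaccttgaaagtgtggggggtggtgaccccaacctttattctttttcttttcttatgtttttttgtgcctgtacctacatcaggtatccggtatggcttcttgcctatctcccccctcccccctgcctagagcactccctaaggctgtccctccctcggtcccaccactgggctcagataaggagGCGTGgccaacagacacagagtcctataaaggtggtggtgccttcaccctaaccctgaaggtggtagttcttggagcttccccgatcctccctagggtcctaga
Cyp1b1 (chr17:79715012-79715311, minus strand, match 76 bases before the start): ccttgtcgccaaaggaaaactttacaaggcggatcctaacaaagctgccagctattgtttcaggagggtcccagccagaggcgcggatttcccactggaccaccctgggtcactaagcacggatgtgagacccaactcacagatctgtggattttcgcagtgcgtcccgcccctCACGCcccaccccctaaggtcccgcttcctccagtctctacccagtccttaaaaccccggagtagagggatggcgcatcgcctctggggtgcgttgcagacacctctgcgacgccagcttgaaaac
Tiparp (chr3:65528197-65528496, plus strand, match 170 bases before the start): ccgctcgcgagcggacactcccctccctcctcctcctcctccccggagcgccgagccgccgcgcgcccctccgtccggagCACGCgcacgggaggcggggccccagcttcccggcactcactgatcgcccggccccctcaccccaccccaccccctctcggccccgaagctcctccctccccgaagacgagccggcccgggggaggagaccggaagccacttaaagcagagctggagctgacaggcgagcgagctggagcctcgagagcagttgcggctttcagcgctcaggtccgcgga
A match is a run of letters and was not tested for binding.

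In GRCm39, Aldh3a1 (ENSMUSG00000019102) lies on chromosome 11 from 61098363 to 61109247 on the plus strand. Cyp1a1 (ENSMUSG00000032315) lies on chromosome 9 from 57595211 to 57611107, Cyp1b1 (ENSMUSG00000024087) on chromosome 17 from 80008966 to 80022532 and Ahr (ENSMUSG00000019256) on chromosome 12 from 35547973 to 35585057. Ahrr (ENSMUSG00000021575) lies on chromosome 13 from 74359237 to 74440462, Tiparp (ENSMUSG00000034640) on chromosome 3 from 65435320 to 65463365 and Arnt (ENSMUSG00000015522) on the same chromosome from 95341365 to 95404551. Of the exonic bases of Tiparp, 15.5% overlap the exons of Gm34924 and Gm38503, and 2.1% of those of Ahr overlap Gm48236. The strand setting of the counting is not stated, so reads in these stretches cannot be assigned.

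Counts per library ranged from 17166133 to 43240489. Egfr, the gene deleted in KO VSMC, reached 228 to 504 FPM (fragments per 1000000 after TMM scaling) in WT VSMC, 33.4 to 40.2 FPM in KO VSMC set 5 and 0.537 to 1.96 FPM in KO VSMC sets 6 to 8. Less of the Egfr RNA was lost in set 5. All 7 smooth muscle markers averaged at least 1 FPM in WT VSMC, but Tagln, the gene of SM22, was at 1.68 to 6.59 FPM, and the 6 fibroblast markers summed to 1400 to 4570 FPM beside 347 to 2120 FPM for the smooth muscle markers. Acta2 was the largest part of the smooth muscle sums, with means of 886 FPM in WT VSMC, 1410 FPM in KO VSMC and 995 FPM in EC. In KO VSMC the fibroblast sum was 205 to 1890 FPM and the smooth muscle sum 686 to 3440 FPM. Between KO and WT VSMC Control the median log2FC was 1.191 for smooth muscle and -1.715 for fibroblast markers, with none called. EC held 200 to 3920 FPM of smooth muscle markers, with set means of 3180 and 2940 FPM in sets 11 and 13. The 5 macrophage and leukocyte markers summed to 4.05 to 244 FPM and the 4 cardiomyocyte markers to 1.4 to 302 FPM over all libraries. The 9 endothelial markers summed to 52.7 to 5000 FPM in EC. Set means were 60.8, 137 and 61.8 FPM in sets 9, 11 and 13 and 547 to 4480 FPM in the other 7 EC sets, while WT VSMC libraries held 2.54 to 73.8 FPM. Sets 9, 11 and 13 thus went against the endothelial label, and the EC comparisons are given with and without them. In EC the fibroblast sum had set means of 177 to 4160 FPM, and in sets 16 and 17 it exceeded the endothelial sum as well (1350 beside 799 FPM and 1480 beside 547 FPM). All EC carry a WT label. In sets 15 and 16, whose animals also gave KO VSMC, Egfr was at 7.45 to 12.5 FPM and 2.16 to 3.16 FPM, and in set 18 at 10.4 to 18.2 FPM, beside 27.5 to 166 FPM in the other 7 EC sets. Set 15 overlapped set 18, whose animal gave no KO VSMC here, and only set 16 lay below all other EC sets. The WT label of sets 15 and 16 is uncertain, and the reason for their low Egfr RNA was not tested. In these bulk samples fewer cells of a type and less RNA per cell cannot be told apart.

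Per kb of exon, Cyp1b1 was the most abundant of the 7 RNAs on average and Cyp1a1 the least abundant in both kinds of VSMC. In WT VSMC, Cyp1b1 amounted to 127 ± 28 FPM per kb (SD, n = 4 sets), Arnt to 7.77 ± 1.12, Aldh3a1 to 6.98 ± 5.27, Ahr to 3.8 ± 1.45, Tiparp to 1.73 ± 0.151 and Ahrr to 0.0834 ± 0.0533 FPM per kb. The ranges of Aldh3a1 (2.35 to 14.4) overlapped those of Arnt and of Ahr, and these neighbours do not differ beyond their spread. Cyp1b1 (100 to 167 FPM per kb) stood clear of all others, and Tiparp (1.51 to 1.84) stood clear of Ahr above it (2.71 to 5.94) and of Ahrr below it (0.0474 to 0.162).

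In KO VSMC the order differed at the second place, where Aldh3a1 amounted to 28.8 ± 16.2 FPM per kb, with a range of 8.25 to 46.6 that lay above Arnt (4.9 to 7.69) and Ahr (2.86 to 7.71). In EC, Cyp1b1 (98.8 ± 38.2 FPM per kb, n = 10 sets) and Aldh3a1 (45.8 ± 49.7, range 3.5 to 151) overlapped, as did Ahr (10.7 ± 7.53) and Arnt (10.2 ± 1.03). Over the EC sets Arnt stayed at 9.13 to 12.4 FPM per kb, while Cyp1a1 ranged from 0 to 4.08 FPM per kb, as the plot of levels per exon length shows.

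**Figure D1:**
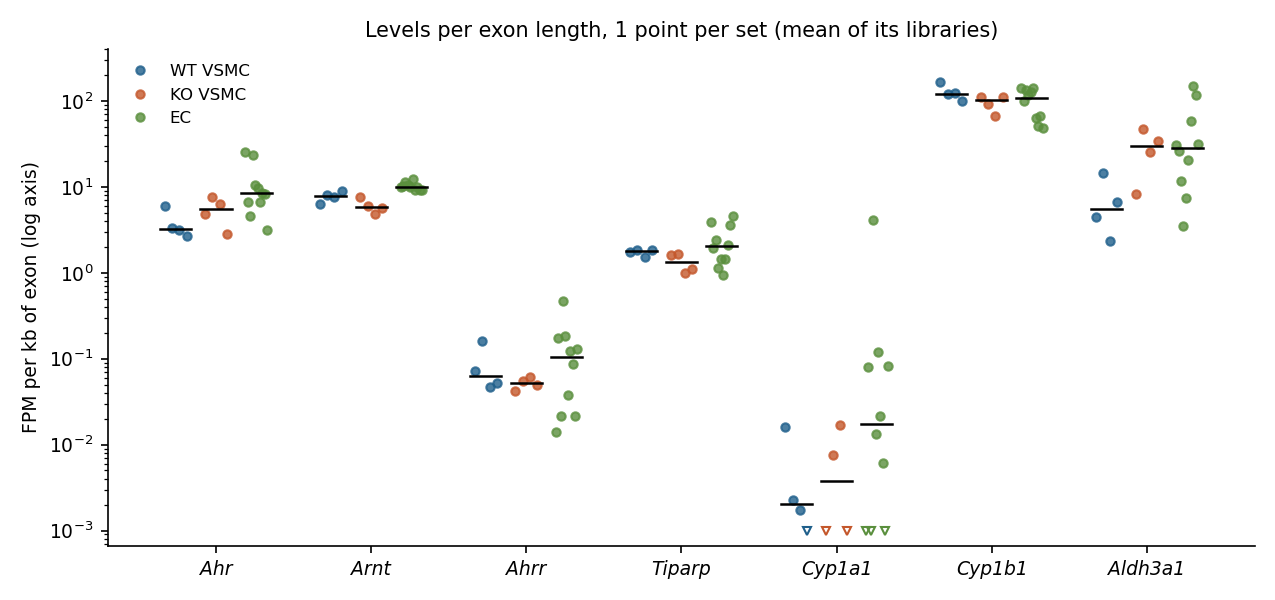
Level of each gene in FPM per kb of exon (log axis), 1 point per set (mean of its libraries), with the median of a cell type as a black bar and open triangles for sets below 0.001 FPM per kb. Cyp1b1 lies at 47.9 to 167 FPM per kb in all 18 sets, whereas Cyp1a1 stays under 1 FPM per kb in all sets but EC set 12.

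Ahr, the receptor, was at 39.5, 17, 13.8 and 12.3 FPM in the WT VSMC Control libraries of sets 1 to 4 and at 32.5, 48.5, 38.3 and 12.5 FPM in those of KO VSMC sets 5 to 8. In EC Control the lowest value was 21.7, the median 51.9 and the highest 141 FPM. The EC libraries of sets 9 and 12 held the most Ahr RNA, 135 to 165 FPM in every condition, and the other EC sets reached no more than 81.9 FPM. EC and WT VSMC Control overlapped. EC Control exceeded WT VSMC Control 3.30-fold (log2FC 1.72, 95% interval 0.59 to 2.86, edgeR FDR = 0.0476, DESeq2 FDR = 0.00442), the only call among the 6 members tested there, and 9.27% of all genes were called in that comparison. The 2 animals common to both cell types were not modelled. Without EC set 12 the log2FC was 1.48 and no longer called (edgeR FDR = 0.0679), and without EC sets 15 and 16 it was 1.89 and not called (edgeR FDR = 0.0694). Without WT VSMC set 2, 3 or 4 it was 1.54 to 1.64, again not called, and without EC sets 9, 11 and 13 it was 1.66 (edgeR FDR = 0.0277).

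None of the stressors changed Ahr beyond the threshold in any cell type. With AII + NA, Ahr reached 46.9, 29.7, 18 and 22.6 FPM in WT VSMC sets 1 to 4, above the Control library of the same set in each, though the groups overlapped. The log2FC was 0.57 ± 0.21 (SE, n = 4, edgeR FDR = 0.354). Under ALL the values were 30.8, 17.8, 22.9 and 21.8 FPM (log2FC 0.31, edgeR FDR = 0.441). In KO VSMC the 3 log2FC lay between -0.01 and 0.21, and in EC between 0.07 and 0.17, or 0.04 and 0.09 without sets 9, 11 and 13.

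Arnt, the partner of AHR and of the hypoxia-inducible factors, was at 40.4 to 93.2 FPM in all VSMC libraries and at 72.1 to 123 FPM in all EC libraries. Its stressor log2FC ranged from -0.10 to 0.09 in WT VSMC. The ranges were 0.04 to 0.17 for KO VSMC and -0.05 to 0.07 for EC, both with all EC sets and without sets 9, 11 and 13, and none was called. These were small beside the spread between sets.

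Ahrr, the repressor that competes with AHR for ARNT, was near the limit of detection. VSMC libraries held 0.182 to 2.31 FPM and EC libraries 0 to 5.19 FPM, with EC set 12 highest in each condition. In EC the log2FC was -1.29 with HG + FFA (95% interval -2.37 to -0.20, edgeR FDR = 0.199, DESeq2 FDR = 0.0343) and -1.30 with ALL (95% interval -2.39 to -0.20, edgeR FDR = 0.208, DESeq2 FDR = 0.0336). Without sets 9, 11 and 13 these were -1.20 (edgeR FDR = 0.352) and -0.98 (edgeR FDR = 0.488), without sets 15 and 16 -1.70 and -1.90, and with no set in the model -0.25 and -0.45, so that the size of the difference depends on the sets and the pairing. Neither reached the 3 FPM that a call needs, and 9 EC libraries, of sets 9, 11, 14 and 17, held fewer than the 3 counts that a count of 0 allows (0.0703 to 0.181 FPM in EC).

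Cyp1a1 RNA was not detectable at this depth in most libraries. It had 0 counts in 11 of 16 WT VSMC, 9 of 15 KO VSMC and 20 of 38 EC libraries, and at most 5 counts in any VSMC library, so it was tested in EC only. EC set 12 was the exception, with 20.3 FPM as Control, 13.1 with HG + FFA, 14.6 with AII + NA and 15.8 with ALL (301 to 666 counts), while no other EC library exceeded 1.15 FPM. Set 12 also held high Ahr, the most Ahrr and the most endothelial marker RNA (4480 FPM), and it held the least Aldh3a1 of the EC sets (7.43 to 9.26 FPM). Whether these go together was not tested with 1 such animal. The stressor log2FC of Cyp1a1 in EC lay between -0.37 and 0.30 with 95% intervals from -2.09 to 2.1, so that a large change could not be seen here. Without sets 9, 11 and 13 they lay between -0.40 and 0.20.

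Cyp1b1 was abundant in every library, with 656 to 1300 FPM in WT VSMC, 430 to 943 FPM in KO VSMC and 309 to 1200 FPM in EC. All 9 stressor log2FC were positive and small, between 0.06 and 0.25, and none was called. Without sets 9, 11 and 13 those in EC were 0.04 to 0.11. With HG + FFA it was higher than in the Control library of the same set in all WT VSMC sets, at 1220, 946, 1010 and 749 FPM beside 1210, 758, 789 and 656 FPM (log2FC 0.225 ± 0.105, edgeR FDR = 0.438). The groups overlapped. Levels in EC fell into a higher range (sets 9 to 14, 684 to 1200 FPM) and a lower one (sets 15 to 18, 309 to 520 FPM), without overlap of libraries.

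Tiparp was lower in WT VSMC exposed to ALL than in Control, and higher in EC exposed to ALL. In WT VSMC Control it was at 21.5, 24.0, 18.1 and 30.0 FPM in sets 1 to 4, and with ALL at 17.5, 16.4, 15.5 and 14.9 FPM. It was lower with ALL than in the Control library of the same set in 4 of 4 sets. The log2FC was -0.523 ± 0.135 (SE, n = 4, edgeR FDR = 0.0267, DESeq2 FDR = 0.00627), which passed the FDR of both tools and stayed under the |log2FC| of 0.64 that a call needs. Of 16905 genes tested, 1259 passed the edgeR FDR in this comparison. Without set 4, whose Control library was highest, the log2FC was -0.35 (edgeR FDR = 0.208), and without set 2 or 3 the FDR was 0.0864 or 0.0574. With AII + NA the values were 20.5, 16, 16.5 and 15 FPM (log2FC -0.45, edgeR FDR = 0.252), and with HG + FFA 20.0, 27.4, 18.9 and 23.4 FPM (log2FC -0.06).

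In KO VSMC, Tiparp was at 19.9, 20.0, 9.81 and 9.30 FPM as Control and at 17.6, 10.9 and 14.4 FPM with ALL (sets 6 to 8, log2FC 0.12, 95% interval -0.19 to 0.43). The groups overlapped, and 2 of 3 sets were higher with ALL. In EC Control the lowest value was 8.15, the median 24.1 and the highest 45.1 FPM, and with ALL these were 10.7, 24.6 and 61.7 FPM. The groups overlapped, but 8 of 9 sets were higher with ALL than in their own Control library, with a log2FC of 0.362 ± 0.095 (edgeR FDR = 0.027, DESeq2 FDR = 0.00874, again under the fold limit). Of 17148 genes tested in EC, 546 passed the edgeR FDR under ALL. With HG + FFA the log2FC of Tiparp was 0.31 (edgeR FDR = 0.0651) and with AII + NA 0.26 (edgeR FDR = 0.719). Without EC sets 9, 11 and 13 the ALL effect was 0.24 (edgeR FDR = 0.351), that of HG + FFA 0.25 (edgeR FDR = 0.323) and that of AII + NA 0.195 (edgeR FDR = 0.999), and with the animal in place of the set as block it was 0.36 (edgeR FDR = 0.103).

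The ALL effect on Tiparp was 0.89 lower on the log2 scale in WT VSMC than in EC (-0.89, 95% interval -1.25 to -0.54, edgeR FDR = 0.0052, DESeq2 FDR = 0.000305), the call among the 7 members in that comparison, in which 0.418% of all genes were called. It was lost without WT VSMC set 4 (-0.71, edgeR FDR = 0.146) and kept without EC sets 9, 11 and 13 (-0.76, edgeR FDR = 0.048). Between genotypes the difference WT VSMC minus KO VSMC was -0.64 (95% interval -1.06 to -0.21, edgeR FDR = 0.404) under ALL and -0.60 (edgeR FDR = 0.395) with AII + NA, and neither was called. The plot of Tiparp by set shows the WT VSMC lines converging on a narrow range under ALL.

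**Figure D2:**
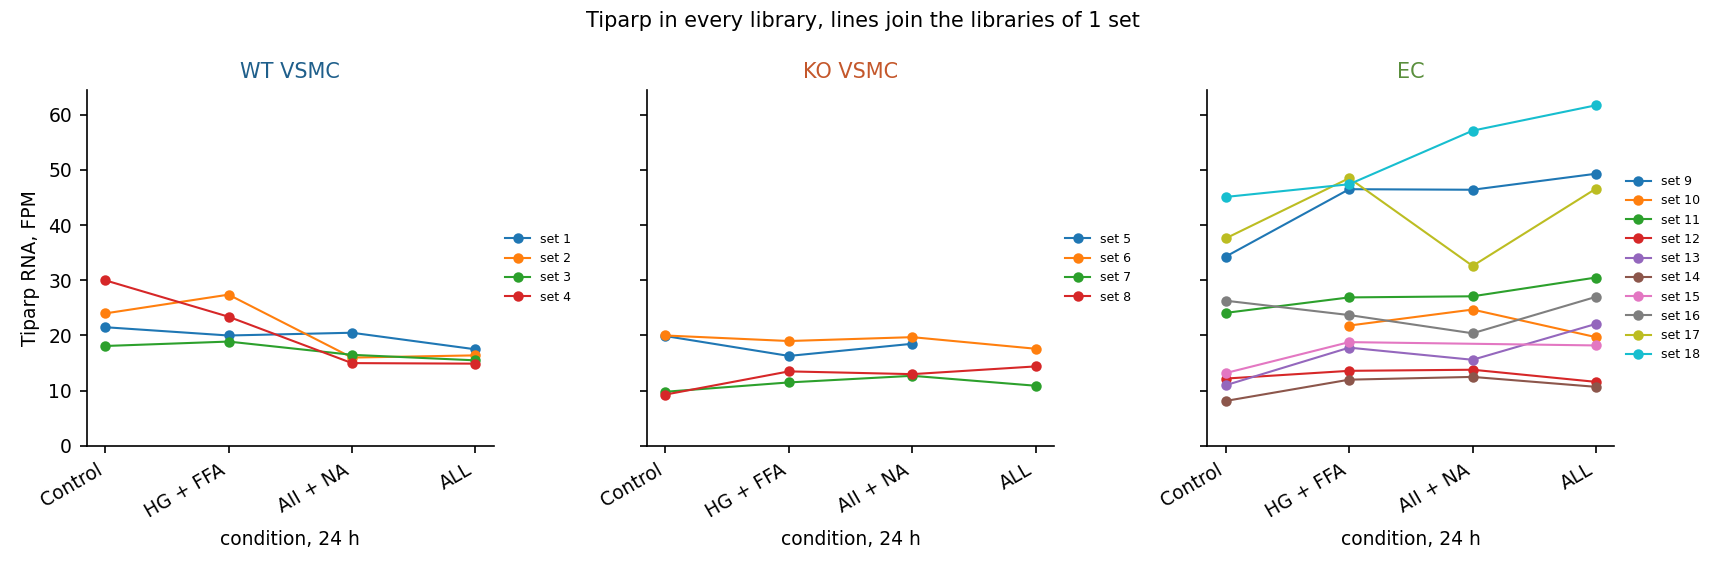
Tiparp RNA in FPM (linear axis from 0) in every library, with lines joining the libraries of 1 set, for WT VSMC, KO VSMC and EC. The WT VSMC sets lie at 18.1 to 30.0 FPM as Control and at 14.9 to 17.5 FPM with ALL, and 8 of 9 EC sets are higher with ALL than as Control.

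Aldh3a1 varied widely between sets. In WT VSMC sets 1 to 4 it was at 12.7, 38.6, 6.28 and 22.8 FPM as Control, and in KO VSMC sets 5 to 8 at 18, 83.4, 65.6 and 75.5 FPM. Set 5, in which Egfr was less reduced, lay within the WT VSMC range and sets 6 to 8 lay above it. In EC Control the lowest value was 8.28, the median 62.6 and the highest 415 FPM. The log2 difference of KO VSMC Control from WT VSMC Control was 1.61 (95% interval 0.27 to 2.95). That of EC Control from WT VSMC Control was 2.52 (95% interval 0.41 to 4.64), or 3.01 without EC sets 9, 11 and 13. No test is given, and the intervals are not read as one, because these Control libraries also entered the contrast that chose the gene.

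**Figure D3:**
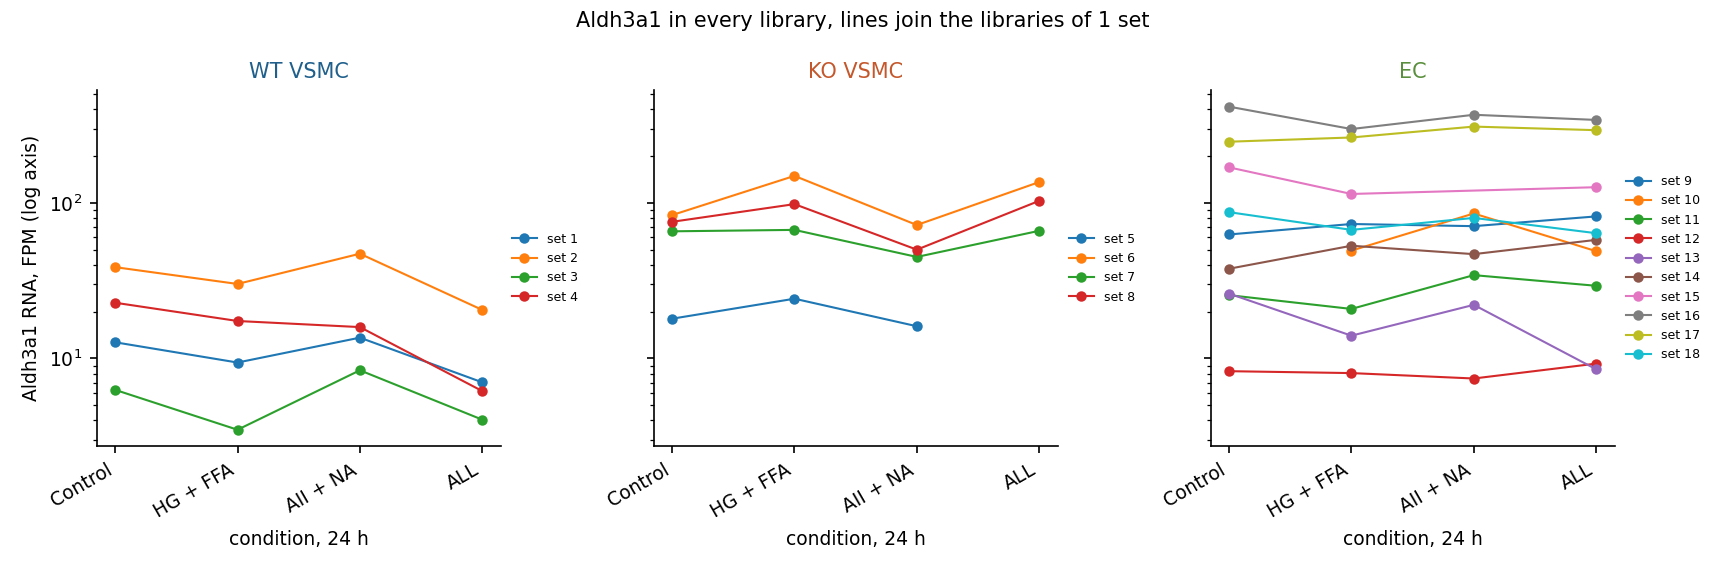
Aldh3a1 RNA in FPM (log axis) in every library, with lines joining the libraries of 1 set, for WT VSMC, KO VSMC and EC. All 4 WT VSMC sets are lowest or next to lowest under ALL, while all 4 KO VSMC sets are higher with HG + FFA than with AII + NA.

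Under ALL, Aldh3a1 was at 7.02, 20.5, 4.04 and 6.17 FPM in WT VSMC, below the Control library of the same set in each, with overlapping groups. In KO VSMC sets 6 to 8 it was at 136, 66.1 and 103 FPM, above the Control library of the same set in each. The log2FC was -1.06 in WT VSMC, a fold of 0.478, and 0.42 in KO VSMC, a fold of 1.34. The difference between genotypes was -1.48 (95% interval -1.98 to -0.98). These are the values that selected the gene, so the interval is not read as a test. In WT VSMC under ALL 2.18% of all genes were called, in KO VSMC 0.314%, and for the difference between genotypes 0.0109%, that is 2 genes. Nothing is read from these shares for Aldh3a1, which was chosen on the same values.

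With the single stressors, HG + FFA gave 9.41, 30.1, 3.48 and 17.4 FPM in WT VSMC and 24.2, 149, 67.0 and 98.1 FPM in KO VSMC. AII + NA gave 13.6, 47.1, 8.39 and 15.9 FPM in WT VSMC and 16.1, 72.0, 44.9 and 50.0 FPM in KO VSMC. Against the Control libraries, which the selecting contrast also used, the log2FC in WT VSMC was -0.47 with HG + FFA and 0.07 with AII + NA, and in KO VSMC 0.42 and -0.38. HG + FFA was thus lower than Control in 4 of 4 WT VSMC sets and higher in 4 of 4 KO VSMC sets.

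The comparison of HG + FFA with AII + NA sets no Control or ALL library, on which the gene was chosen, against another. Those libraries were in the same fit, however, and entered its scaling, dispersion and set effects. The test is thus not fully independent of them. In KO VSMC Aldh3a1 was higher with HG + FFA in 4 of 4 sets, by 0.81 ± 0.12 on the log2 scale (SE, 95% interval 0.55 to 1.06, edgeR FDR = 0.0051, DESeq2 FDR = 4.98e-07), a 1.75-fold difference. It was the call among 6 members tested, beside 0.336% of all genes. The call was lost without set 6 (log2FC 0.71, edgeR FDR = 0.114) or set 7 (log2FC 0.89, edgeR FDR = 0.0573) and was as large without set 5 (log2FC 0.87, edgeR FDR = 0.0052). In WT VSMC it was lower with HG + FFA in 3 of 4 sets, with a log2FC of -0.53 (95% interval -0.92 to -0.15, edgeR FDR = 0.129, DESeq2 FDR = 0.0467), and 0.846% of all genes but none of the members were called. Without set 4, the set that was higher with HG + FFA, the log2FC was -0.79 and was called (edgeR FDR = 0.0214). This was the 1 call among 11 alternative settings. The difference between genotypes in this comparison, chosen after the values had been seen, was -1.35 (95% interval -1.82 to -0.87). It missed the threshold in edgeR (FDR = 0.068) and passed it in DESeq2 (FDR = 0.000251). Over 15 alternative settings it lay between -1.585 and -1.158 and was called in 3. Among these was the fit without WT VSMC set 4, the set that went the other way (-1.58, edgeR FDR = 0.00052). Of all genes, 0% were called there by both tools, with 1597 genes at an unadjusted p under 0.05 and 26 by DESeq2 alone.

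In EC, Aldh3a1 did not differ from Control beyond the threshold under any stressor. The log2FC was -0.23 with HG + FFA (95% interval -0.48 to 0.03), 0.09 with AII + NA (95% interval -0.18 to 0.36) and -0.14 with ALL (95% interval -0.40 to 0.12), and 5 of 9 sets were higher with ALL. Without sets 9, 11 and 13 these were -0.18, 0.07 and -0.08, again not called. Sets ranged from 8.25 FPM (set 12) to 355 FPM (set 16) on average. Sets 15, 16 and 17 held 114 to 415 FPM in every library, and no library of another set exceeded 87.1 FPM. Sets 17 and 18, from the same animal, differed (247 to 309 FPM against 63.8 to 87.1 FPM).

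Other measures were set beside the level of Aldh3a1. Egfr was at 0.537 to 1.96 FPM in KO VSMC sets 6 to 8 and at 2.16 to 3.16 FPM in EC set 16, where Aldh3a1 was high, but at 40.5 to 46.7 FPM in EC set 17, where it was high too, and EC set 9 paired 134 FPM of Egfr with 72.1 FPM of Aldh3a1. The 9 epithelial and mesothelial markers summed to 3.21 to 8.42 FPM in WT VSMC libraries, of which 2 averaged at least 1 FPM, and to 6.56 to 92.3 FPM in KO VSMC, with set means of 7.46 FPM in set 5 and 30.9 to 73.6 FPM in sets 6 to 8. Most of it was Upk3b, a uroplakin of mesothelium and urothelium (mean 31.2 FPM in KO VSMC), while Epcam, which defines epithelium, was at 0 to 0.0327 FPM there. In EC the set with the highest marker sum (set 14, 118 FPM) held 48.8 FPM of Aldh3a1 and the set with the most Aldh3a1 (set 16, 355 FPM) a sum of 47.9 FPM, and over the WT VSMC sets Aldh3a1 went from 5.55 to 34.1 FPM at sums of 3.94 to 6.06 FPM. EC sets 16 and 17, with the most Aldh3a1, held more fibroblast than endothelial marker RNA. So did sets 9, 11 and 13 (fibroblast sums of 1590, 3560 and 4160 FPM), with 72.1, 27.5 and 17.7 FPM of Aldh3a1. The part of these cells or of Egfr in the level of Aldh3a1 was not tested.

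**Figure D4:**
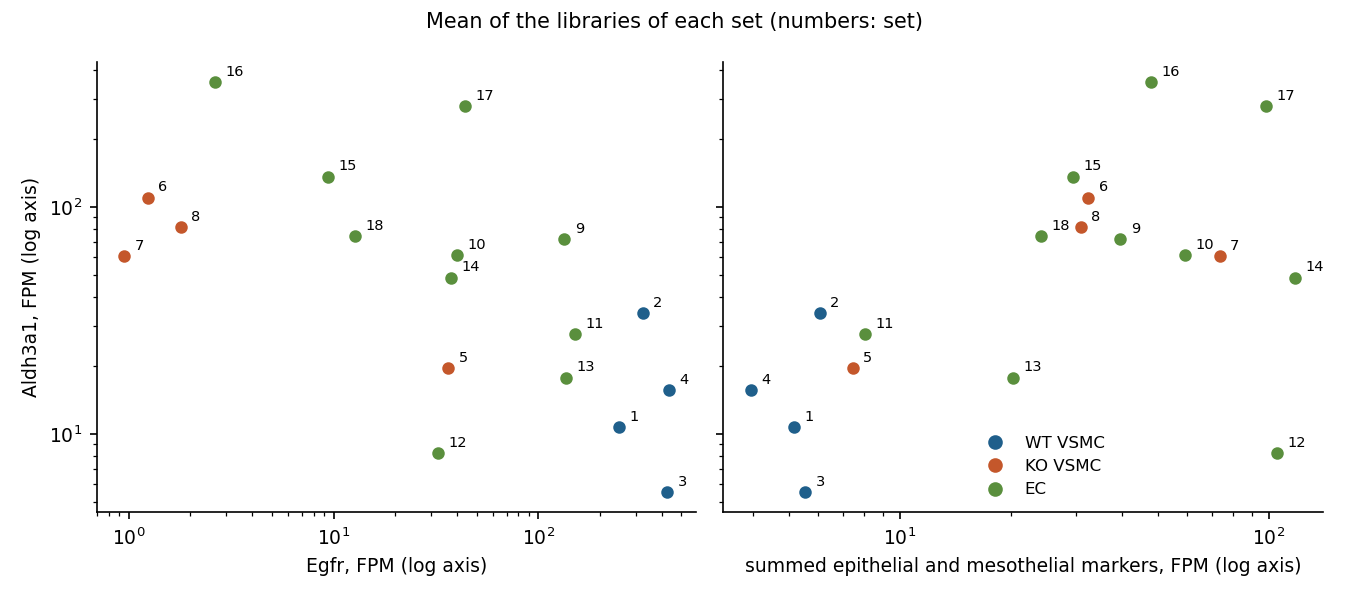
Mean Aldh3a1 FPM of each set (numbers are sets) beside the mean Egfr FPM (left) and the summed epithelial and mesothelial markers (right), all axes log. KO VSMC set 5 lies near the WT VSMC sets in Aldh3a1 and the marker sum but not in Egfr (36.3 FPM beside 249 to 433), and EC set 12 pairs a high marker sum (105 FPM) with little Aldh3a1 (8.25 FPM).

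Apart from Aldh3a1 under ALL in WT VSMC, part of the response that selected it, no stressor gave a call among the members against Control, and the plot of stressor effects shows the sizes. Of the 6 members tested in VSMC, HG + FFA gave 0 calls in WT VSMC (0.284% of all genes called, 2 members at an unadjusted p under 0.05) and 0 in KO VSMC (0.285%, 1 member). AII + NA gave 0 calls in WT VSMC (0.0414%, 3 members) and 0 in KO VSMC, where 0% of all genes were called by both tools, with 1711 genes at an unadjusted p under 0.05 and 7 by DESeq2 alone. Of the 7 members tested in EC, 0 were called with HG + FFA (0.647% of all genes), with AII + NA (0%, with 1143 genes at an unadjusted p under 0.05 and 0 by DESeq2 alone) and with ALL (0.641%), with 2 members at an unadjusted p under 0.05 each time. DESeq2 alone called none of the members in these comparisons. Ahrr (highest group mean 1.54 FPM) and Cyp1a1 (2.42 FPM) stayed under the 3 FPM that a call needs. Neither could be called, though both are among the members tested.

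**Figure D5:**
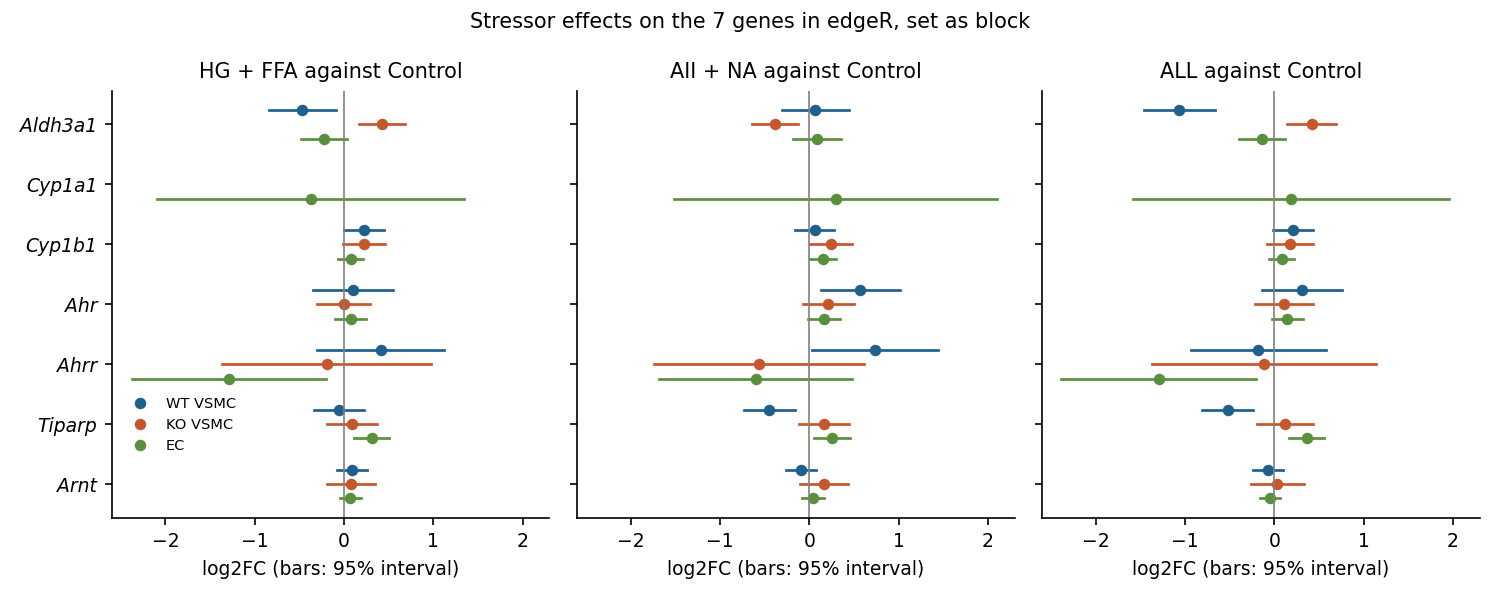
Log2FC against Control of the 7 genes with 95% intervals (bars) in edgeR with the set as block, for HG + FFA, AII + NA and ALL, in WT VSMC, KO VSMC and EC. Cyp1a1 was tested in EC only, and under ALL the interval of Tiparp in WT VSMC lies below 0 while those of Cyp1b1 and Arnt include it. Aldh3a1 was chosen on its values under ALL in VSMC, so its intervals there show the precision of the fit and are not read as a test.

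Between genotypes, 0 members were called for HG + FFA and for AII + NA, with 0% of all genes called in both (564 and 2182 genes at an unadjusted p under 0.05, 0 and 0 by DESeq2 alone). KO VSMC Control against WT VSMC Control gave 0 members and 0.00622% of all genes, that is 1 gene. Between WT VSMC and EC the effect of HG + FFA gave 0 members and 0% of all genes (397 genes at an unadjusted p under 0.05, 2 by DESeq2 alone). The effect of AII + NA gave 0 members and 0.0465% of all genes, and DESeq2 alone called Tiparp (-0.70, FDR = 0.0338).

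Genes around the receptor were counted in the same way. Of 8 genes of the AHR complex and its cofactors, all were tested, and 1 was called in WT VSMC under ALL (2.18% of all genes), Arnt2, a relative of ARNT that can take its place (log2FC 0.74 ± 0.16, SE, edgeR FDR = 0.00867). No other gene of that list was called within a cell type, with at most 2 at an unadjusted p under 0.05 and none by DESeq2 alone. The ALL effect on Arnt2 was 0.76 higher on the log2 scale in WT VSMC than in EC (edgeR FDR = 0.0148, 0.418% of all genes called), and without EC sets 9, 11 and 13 it was 0.75 and not called (edgeR FDR = 0.0745). Of 9 bHLH-PAS relatives that are or resemble partners of ARNT, 7 were tested in WT VSMC, and Arnt2 was the call among them too. In KO VSMC and EC, 6 were tested and 0 were called (at most 2 at an unadjusted p under 0.05, and 1 by DESeq2 alone, in KO VSMC for HG + FFA against AII + NA). In EC Control, Epas1, the endothelial hypoxia-inducible factor, exceeded WT VSMC Control by 4.12 on the log2 scale (edgeR FDR = 0.00776), Ereg, an EGFR ligand, by 1.57 (edgeR FDR = 0.0207) and Ncoa2, a coactivator, by 0.72 (edgeR FDR = 0.0337), in a comparison that called 9.27% of all genes. Without EC sets 9, 11 and 13 these were 4.65, 1.501 and 0.67, all called, and Npas2 (-1.89) and Xdh (-2.09) were called too. Of 9 other AHR targets, 7 were tested, among them Nqo1 and Nfe2l2, and none was called under a stressor in any cell type (at most 2 at an unadjusted p under 0.05, none by DESeq2 alone). Ugt1a6a, Ugt1a6b and Serpinb2 of that list averaged 0.272 to 2.77 FPM per cell type. The 3 FPM that a call needs thus barred or limited calls for them. Their median log2FC in WT VSMC under ALL was -0.43 beside -0.01 over all genes tested, and in KO VSMC 0.06 beside 0.00. Of 8 genes of the kynurenine route, which makes AHR ligands from tryptophan, only 2 to 5 were expressed enough to be tested, and none was called by either tool. Only Afmid (3.27 to 3.69 FPM per cell type) reached the 3 FPM that a call needs, so the others could not be called.

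Of 20 other members of the aldehyde dehydrogenase family, 17 were tested, and in WT VSMC under ALL 2 rose, 2 fell and the other 13 were not called, beside 2.18% of all genes called. Aldh1a1, a retinaldehyde dehydrogenase, rose in WT VSMC (log2FC 1.13 ± 0.17, edgeR FDR = 0.0015) and in KO VSMC (log2FC 0.75 ± 0.11, edgeR FDR = 0.00612), and Aldh1a7 rose in WT VSMC (log2FC 0.89, edgeR FDR = 0.00266). Aldh1a3, of the same function, fell in WT VSMC with HG + FFA (log2FC -1.29, edgeR FDR = 0.00149) and with ALL (log2FC -1.48, edgeR FDR = 0.000171). In KO VSMC under ALL the log2FC of the 17 genes ranged from -1.235 to 1.242. There 7 had an unadjusted p under 0.05 and 3 were called by DESeq2 alone. None of the 17 was called for the ALL effect in WT VSMC minus KO VSMC, so these changes are not shown to differ between genotypes. Aldh1a2 fell in WT VSMC under ALL (log2FC -0.81) and in EC with HG + FFA (log2FC -1.10) and ALL (log2FC -0.91), and the 2 calls in EC with HG + FFA were Aldh1a2 and Aldh1l1, beside 0.647% of all genes. Without EC sets 9, 11 and 13, Aldh1a2 was at -1.14 and -0.96 and Aldh1l1 with HG + FFA at -0.95, all called, and Aldh6a1 was called too under ALL (-0.70). Against AII + NA, HG + FFA gave lower Aldh1a3 (log2FC -0.998) and Aldh1b1 (log2FC -0.69) in WT VSMC. In EC Control, Aldh1a2 (log2FC -2.26) and Aldh1l1 (log2FC -1.55) were lower than in WT VSMC Control. Without EC sets 9, 11 and 13 these were -1.85 and -1.66, both called, as were Aldh1a1 (1.80), Aldh1a7 (2.93) and Aldh9a1 (-0.66). Family medians stayed between -0.11 and 0.02 in the 9 stressor comparisons.

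On chromosome 11, 4 protein-coding genes lie within 100 kb of Aldh3a1. Of these, Usp22, a deubiquitinase, and Aldh3a2, which oxidises fatty aldehydes, were tested and neither was called in any comparison (0 at an unadjusted p under 0.05 under a stressor, 0 by DESeq2 alone). Aldh3a2 was at 71.5 to 113 FPM in all libraries. Under ALL their log2FC were -0.03 in WT VSMC, 0.12 and 0.14 in KO VSMC.

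Over the 31 VSMC libraries, with log2(FPM + 0.1) centred within each set, Dio2 was most like Aldh3a1 (Pearson r = 0.82) among 11613 genes, followed by Fez1 (0.80), Syt17 (0.78), Hmga1b (0.75) and Hmga1 (0.73), and the last 2 are near-identical copies whose reads may be shared. Most unlike were Hspa4 (-0.72), Tgfb2 (-0.70), Lox (-0.70), Ednrb (-0.70) and Gm10762 (-0.69). Dio2 encodes the deiodinase that activates thyroid hormone, Lox an enzyme that crosslinks collagen and elastin and Tgfb2 a growth factor. In EC the r of these genes lay between -0.39 and 0.39. The libraries of a set share their animal and the Aldh3a1 values were known beforehand, so these are descriptions.

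None of the 4 other members that reached 3 FPM in VSMC was near the top of that order. Tiparp had r = 0.27 (rank 1389), Arnt -0.07 (rank 7373), Ahr -0.24 (rank 10053) and Cyp1b1 -0.34 (rank 10945).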

How the data were processed

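Poly(A) RNA-Seq of 69 libraries was used. The authors aligned the reads to mm39 with HISAT2 2.1.0, counted them over exons with featureCounts, including reads with several alignments, and deposited the raw count per gene. Strand and pair settings are not given in the sources used here. Positions came from GENCODE vM39 (GRCm39). The members and gene lists were chosen with earlier results of these data known.

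FPM were calculated after TMM normalization. Models in edgeR 4.0.16 (quasi-likelihood test, filterByExpr) and DESeq2 1.42.0 held condition and set, in R 4.3.3. Called genes were protein-coding or lncRNA, had an FDR (Benjamini-Hochberg over all genes tested) under 0.05 with both tools, reached 0.64 in |log2FC| and averaged 3 FPM or more in 1 of the groups compared. Log2FC, SE and intervals are edgeR's. For levels between cell types the counts of EC sets 17 and 18 were summed. The set pairs the libraries by animal, passage and time, and deviations from the group mean correlated within sets (mean r 0.797 for WT VSMC, 0.78 for KO VSMC, 0.819 for EC). No pair of libraries agreed within sampling noise. P-values for stressor effects rest on how the effect varied between sets, with the level of each set taken out by the block. Those for Control levels, fitted without a block, rest on the spread between libraries. List genes were named where called, at most 3 per list and comparison, and the 5 genes most and least like Aldh3a1 were named. Alternatives covered tool, scaling, filter, call rule, FPM minimum, block, samples fitted and sets left out. The models were tested on simulated data.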

Additional observations from a re-analysis of the deposited data

Results flagged for a closer look

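Of 75 groups of 4 to 10 libraries in which a gene's values differed, 10 held 1 library far from the rest by Dixon's test, where chance flags about 1 in 20 groups. Of these, 7 were EC set 12. Its Cyp1a1 stood at 20.3 FPM as Control, 13.1 FPM with HG + FFA, 14.6 FPM with AII + NA and 15.8 FPM with ALL. Its Ahrr stood at 5.09 FPM as Control, 4.68 FPM with HG + FFA and 5.19 FPM with AII + NA. The 4 libraries of that set come from 1 animal and are not independent. In WT VSMC, Cyp1a1 with AII + NA stood at 0.155 FPM in set 1, which is 4 counts, and Ahrr as Control at 1.3 FPM in set 2. Arnt in EC with HG + FFA was high in set 14 (122 FPM).

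The effect of ALL stressors differed between cell types for Tiparp, whose log2FC in WT VSMC minus that in EC was -0.89 by the joint edgeR model (FDR = 0.0052). For Aldh3a1 the effect of ALL was -1.48 in WT VSMC minus KO VSMC, the value that chose the gene.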

How the results depend on the processing

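For the effects on members with an unadjusted p under 0.05, no alternative that was run reversed the direction, 429 values kept their side of the threshold, 14 became calls and 19 lost the call. These effects had passed that cut in largely the same libraries, so a reversal was unlikely from the start. The 429 include effects called neither before nor after, and the tally holds the Aldh3a1 contrasts that chose the gene. Main counts of members called were 1 for WT VSMC ALL, KO VSMC HG + FFA against AII + NA, WT VSMC minus KO VSMC under ALL, WT VSMC minus EC under ALL and EC Control against WT VSMC Control, and 0 elsewhere. Those in WT VSMC under ALL and in WT VSMC minus KO VSMC under ALL are Aldh3a1 on the values that chose it, so their counts below are listed as a description and say nothing of its stability. Leaving out 1 VSMC set at a time gave 0 to 1 for WT VSMC HG + FFA against AII + NA (1 without set 4), KO VSMC HG + FFA against AII + NA (0 without set 6 or 7), WT VSMC minus KO VSMC under ALL (1 without set 3 or 5, otherwise 0) and for HG + FFA against AII + NA (1 without set 4), WT VSMC minus EC under ALL (0 without set 4) and EC Control against WT VSMC Control (1 without set 1, otherwise 0). DESeq2 alone gave 1 for WT VSMC minus EC with AII + NA, 2 under ALL, 1 for WT VSMC minus KO VSMC in HG + FFA against AII + NA and 2 for EC Control against WT VSMC Control. Without a count filter these were 1, 2, 1 and 0, and 1 for WT VSMC minus KO VSMC with HG + FFA. The edgeR FDR alone gave 2 in WT VSMC under ALL and 1 in EC under ALL, both with Tiparp added. EC Control against WT VSMC Control gave 0 without set 12, 0 without sets 15 and 16 and 2 without sets 9, 11 and 13, which also gave 2 for WT VSMC minus EC under ALL. With no replicate block, the pairing by set left out, 0 members were called in WT VSMC under ALL, in KO VSMC HG + FFA against AII + NA and under ALL in WT VSMC minus KO VSMC and minus EC. The cause was not tested. The omissions of EC set 12 and of EC sets 9, 11 and 13 and the comparisons of effects between WT VSMC and EC were chosen after seeing the data. Depth limits Cyp1a1, with 0 to 5 counts in VSMC libraries, and Ahrr, with 4 to 62.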
